A study of Mus musculus with 8 samples.

Results

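The vascular endothelial growth factor (VEGF) ligands and their receptors comprised 10 genes, taken by their symbols with earlier results of these data known: the ligands Vegfa, Vegfb, Vegfc, Vegfd and Pgf, the tyrosine kinase receptors Flt1, Kdr and Flt4, and the co-receptors Nrp1 and Nrp2. Each of the 10 was among the 31053 genes of the count files, and all 10 passed the filter on low counts that left 13813 genes for testing. The libraries were QuantSeq 3′ mRNA libraries, which read the 3′ end of polyadenylated transcripts, from retinal pigment epithelium (RPE) eyecups of mice at postnatal day 11 (P11) on a C57/Bl6 background. The knockout group held 4 libraries from Bbs8-/- mice, which lack the BBSome subunit Bbs8 (gene symbol Ttc8), and the control group held 4 libraries from Bbs8+/+ littermates. The study took each animal as 1 biological replicate. The lens, neural retina, cornea and optic nerve had been removed and the remaining eyecup was homogenised whole, so that choroid and sclera were measured together with the RPE. In such bulk samples, fewer cells of a type and less RNA per cell cannot be told apart.

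VEGF-A is the main growth factor of blood vessels, and in the eye the RPE secretes it towards the choriocapillaris, the capillary bed behind it, which depends on this supply. VEGF-A signals through the receptor VEGFR2 (gene Kdr) on endothelial cells. VEGFR1 (gene Flt1) binds VEGF-A more tightly but signals weakly, and its soluble form acts as a decoy. VEGF-B and placental growth factor (gene Pgf) bind VEGFR1, whereas VEGF-C and VEGF-D act mainly on VEGFR3 (gene Flt4), the receptor of lymphatic endothelium. The neuropilins Nrp1 and Nrp2 have no kinase of their own and bind VEGFs as well as secreted semaphorins.

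Counts of a 3′ protocol come from the end of a transcript, and the annotated 3′ ends of the genes that the results turn on are therefore shown as 30-base windows of the mm10 (GRCm38) sequence, 5′ to 3′ on the gene's strand, with the polyadenylation signal in capitals.
Vegfa, chr17:46017002-46017031, minus strand: aaagcattttgtATTAAAgaattgaattct
Nrp2, chr1:62818659-62818688, plus strand: gattactatttaAATAAAcattataccaga
Flt1, chr5:147561610-147561639, minus strand: ttatcttcatttAATAAAattaactttcaa
Kdr, chr5:75932834-75932863, minus strand: gctttataaaccAATAAAcgtattctgagt
The last base of the transcript lay 21 bases beyond the last base of the signal in Vegfa, 19 bases beyond it in Nrp2 and Kdr, and 18 bases beyond it in Flt1. Vegfa carries the variant signal ATTAAA, and the other 3 genes carry AATAAA. The counts were summed per gene. The 8 annotated coding transcripts of Vegfa, with 4 distinct ends, were thus counted together, and so were the full-length Flt1 transcript and the shorter 13-exon one, whose end lies upstream at position 147635159 of chromosome 5. The 6 coding transcripts of Nrp2 end at 3 distinct positions and were likewise counted together. Soluble and membrane-bound forms could not be separated.

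The promoters of Vegfa and Nrp2, the genes called below, are shown from 250 bases before to 50 bases after the transcript start (RefSeq, GRCm38.p6), 5′ to 3′ on the gene's strand, with matches to the GC box GGGCGG (the core bound by Sp1 proteins, either strand) in capitals.
Vegfa, chr17:46032328-46032627, minus strand: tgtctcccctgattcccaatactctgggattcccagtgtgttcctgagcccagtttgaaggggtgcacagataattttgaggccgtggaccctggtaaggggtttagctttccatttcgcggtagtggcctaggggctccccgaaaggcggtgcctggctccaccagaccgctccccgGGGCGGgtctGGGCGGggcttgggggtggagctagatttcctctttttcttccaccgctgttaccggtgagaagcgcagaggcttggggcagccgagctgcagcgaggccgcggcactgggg
Nrp2, chr1:62703067-62703366, plus strand: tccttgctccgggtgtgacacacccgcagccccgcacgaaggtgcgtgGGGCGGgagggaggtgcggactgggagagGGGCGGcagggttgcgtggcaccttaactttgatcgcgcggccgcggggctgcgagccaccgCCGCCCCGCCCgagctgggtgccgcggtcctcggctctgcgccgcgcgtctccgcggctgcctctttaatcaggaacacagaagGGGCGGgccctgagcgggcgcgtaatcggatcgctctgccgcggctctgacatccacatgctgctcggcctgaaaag
The Vegfa window had a GC content of 62.0% and held 2 GC boxes, and the Nrp2 window had a GC content of 70.7% and held 5 GC boxes, 2 of which overlap by 1 base. A GC box was present in 10 of the 12 promoter windows of the 10 genes and in 35.7% of all 32851 windows of this length, whose median GC content was 52.7%. The core ACGTG, bound by hypoxia-inducible factors (HIF), was searched on both strands and matched 1 of the 12 windows, an alternative Vegfa start, against 19.6% of all windows. The M-box core CATGTG matched 2 of the 12 windows against 14.2% of all windows, and TATAAA matched 2 of the 12 against 13.6%. These matches describe letters only and not bound sites.

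Each library held 1636725 to 2884983 counts in genes, and at this depth 3 counts amount to 1.04 to 1.83 CPM (counts scaled to the same library total). The targeted gene Ttc8 fell from 18.5 ± 2.95 CPM in Bbs8+/+ to 4.96 ± 3.26 CPM in Bbs8-/- (SD, n = 4 each, log2 fold change -1.95, FDR = 2.74e-06), with no overlap between genotypes. Of the 13813 genes tested by the quasi-likelihood test of edgeR at a false discovery rate (FDR) of 0.05, 152 (1.1%) were higher and 157 (1.14%) lower in the knockout, 2.24% in either direction. Reads outside annotated genes made up 42.6% ± 0.542 of uniquely aligned reads in the controls and 44.3% ± 0.125 in the knockouts (two-sided exact permutation p = 0.0286, the smallest that 4 against 4 libraries allow). All 8 libraries held reads of both Xist and Y-linked genes. The Y-linked share of these reads was 8.19% ± 0.508 in Bbs8+/+ and 16.2% ± 1.14 in Bbs8-/-, so that the sex makeup of the samples and the genotype cannot be told apart. A library may thus hold RNA of more than 1 animal, which was not tested, and n, SD and p refer to libraries.

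Of the 10 VEGF genes, 1 was up-regulated and 1 was down-regulated in Bbs8-/- eyecups, against 1.1% and 1.14% of all tested genes. The ligand Vegfa rose and the co-receptor Nrp2 fell. The other 8 genes did not pass the threshold, with estimates below 0 for 6 of them and above 0 for 2. An unadjusted p under 0.05 was reached by 4 of the 10 (13.0% of all tested genes), and 3 of the 10 (7.32% of all tested genes) had no overlap between genotypes. Over the 10 genes the median log2 fold change came to -0.19, beside -0.0041 over all tested genes.

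**Figure D1:**
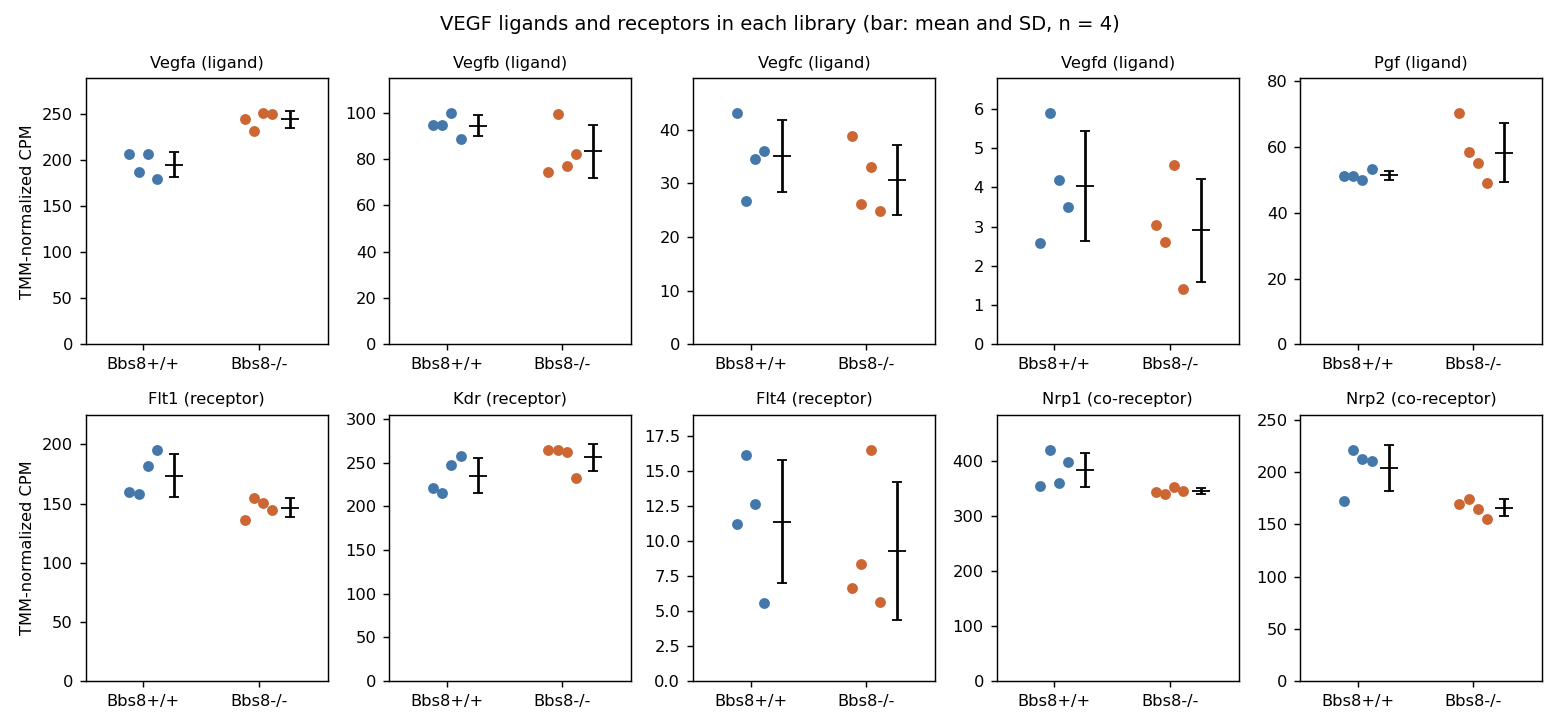
TMM-normalized CPM (y axis, from 0, with its own scale in each panel) of the 10 VEGF genes in the 4 Bbs8+/+ (blue) and 4 Bbs8-/- (orange) libraries; each point is 1 library, and the bar beside each group is its mean and SD. Vegfa is higher in every Bbs8-/- library than in any Bbs8+/+ library, and Flt1 and Nrp1 are lower in every Bbs8-/- library, by a small margin.

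Vegfa (ENSMUSG00000023951, chr17:46016993-46032369) was measured with 403 to 548 counts per library. Its normalized level was 207, 188, 207 and 180 CPM in Bbs8+/+ replicates 1 to 4, and 244, 232, 251 and 251 CPM in Bbs8-/- replicates 1 to 4. The lowest knockout library thus lay above the highest control library. The means were 195 ± 13.6 and 245 ± 9.06 CPM, a log2 fold change of 0.33 (SE 0.0760, 95% interval 0.18 to 0.48, FDR = 0.00314) or a rise of 25.5% with an interval of 13.1% to 39.3%. Among all 309 called genes, 28.8% had a smaller change than Vegfa, and the median size of their log2 fold changes was 0.43. Vegfa kept its call in each of 15 alternative analyses, with log2 fold changes of 0.29 to 0.36.

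The remaining ligands did not pass the threshold. Vegfb (chr19:6982473-6987651), a ligand linked to lipid handling and survival of vascular cells, was at 94.8, 94.8, 99.9 and 88.7 CPM in Bbs8+/+ and at 74.6, 99.7, 77.0 and 82.2 CPM in Bbs8-/- replicates 1 to 4. Bbs8-/- replicate 2 stood among the controls and the other 3 knockout libraries below them, for a log2 fold change of -0.18 (SE 0.110, 95% interval -0.40 to 0.04, FDR = 0.526). Pgf (chr12:85166635-85177790), the placental growth factor, was at 49.97 to 53.4 CPM in Bbs8+/+ and at 70.3, 58.5, 55.0 and 49.0 CPM in Bbs8-/- replicates 1 to 4. The control libraries were close together with an SD of 1.43 CPM, whereas the knockout libraries spread widely around them with an SD of 8.98 CPM (log2 fold change 0.17, 95% interval -0.10 to 0.44, FDR = 0.669).

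Vegfc and Vegfd, the lymphatic ligands, were the least abundant ligands. Vegfc (chr8:54077606-54187096) was at 26.7 to 43.1 CPM in Bbs8+/+ and at 24.8 to 38.8 CPM in Bbs8-/-, and the genotypes overlapped (log2 fold change -0.20, 95% interval -0.55 to 0.15, FDR = 0.703). Vegfd (chrX:164373378-164402650) had 3 to 15 counts per library, or 1.40 to 5.90 CPM, close to the smallest level that this depth can show. Its log2 fold change was -0.47 with an interval of -1.57 to 0.63 (FDR = 0.808), the widest of the 10. The summed CPM of the 5 ligands was 380 ± 19.3 in Bbs8+/+ and 420 ± 9.47 in Bbs8-/- with no overlap, and Vegfa made the largest contribution to this sum in every library.

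Of the receptors, none passed the threshold. Flt1 (VEGFR1, chr5:147561604-147726011) was at 159, 158, 182 and 196 CPM in Bbs8+/+ and at 136, 154, 150 and 145 CPM in Bbs8-/- replicates 1 to 4. Every knockout library was below every control library, but the gap between the nearest libraries, 154.5 and 157.7 CPM, was small beside the spread of the controls. The log2 fold change was -0.25 (SE 0.0867, 95% interval -0.42 to -0.07, unadjusted p = 0.00525, FDR = 0.133 by edgeR), and FDR was over the threshold in all 15 alternative analyses. Kdr (VEGFR2, chr5:75932827-75978458) was at 221, 215, 247 and 258 CPM in Bbs8+/+ and at 265, 264, 263 and 233 CPM in Bbs8-/- replicates 1 to 4. Of the knockout libraries, 3 lay above all controls and replicate 4 lay among the controls (log2 fold change 0.12, SE 0.0738, 95% interval -0.03 to 0.27, FDR = 0.52).

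Flt4 (VEGFR3, chr11:49609263-49652739) had 11 to 41 counts per library. It was at 5.58 to 16.1 CPM in Bbs8+/+ and at 5.603 to 16.5 CPM in Bbs8-/-, ranges that nearly coincide. Its log2 fold change was -0.26 with an interval of -0.89 to 0.36 (FDR = 0.812). The estimate moved from -0.71 without Bbs8-/- replicate 3 to -0.03 without Bbs8+/+ replicate 2, and no omission of a library brought a call. Of 5 lymphatic markers, 4 were detected and tested, and none passed the threshold. Prox1, the regulator of lymphatic fate, was at 7.72 ± 3.19 CPM in the controls and 6.78 ± 2.08 CPM in the knockouts, and Lyve1, a hyaluronan receptor that macrophages also express, at 9.17 ± 1.93 and 14.6 ± 3.26 CPM. Pdpn was at 419 ± 20.7 and 466 ± 35.1 CPM and Flrt2 at 91.2 ± 7.71 and 91.4 ± 9.39 CPM, and both genes overlapped between genotypes. Ccl21a had 0 counts in all libraries. The limit of 1.04 to 1.83 CPM per library covers counting error only, because reads that align to more than 1 place were not counted. Summed, the lymphatic markers were at 506 to 554 CPM in Bbs8+/+ and 544 to 605 CPM in Bbs8-/-. Pdpn made up most of this sum, which therefore says little about Prox1 or Lyve1.

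Both neuropilins had estimates below 0. Nrp2 (chr1:62703285-62818695) was at 172, 221, 212 and 210 CPM in Bbs8+/+ and at 170, 174, 165 and 156 CPM in Bbs8-/- replicates 1 to 4. Bbs8+/+ replicate 1 stood among the knockout libraries, whereas the other 3 controls were above all of them. Nrp2 fell by 0.30 on the log2 scale (SE 0.0823, 95% interval -0.46 to -0.14, FDR = 0.0218), or by 18.9% with an interval of 9.17% to 27.5%. This call was lost when any 1 of 6 of the 8 libraries was left out (FDR = 0.055 to 0.162), with log2 fold changes of -0.31 to -0.26. The annotated genes Gm29083, on the opposite strand, and Gm37121, on the same strand, overlap Nrp2, and whether reads were counted by strand is not given in the sources used here.

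Nrp1 (chr8:128358604-128503363), the most abundant of the 10 genes, was at 355, 421, 361 and 398 CPM in Bbs8+/+ and at 344, 340, 354 and 346 CPM in Bbs8-/- replicates 1 to 4. The 4 knockout libraries were close together, just below the lowest control. The log2 fold change was -0.15 (SE 0.0650, 95% interval -0.28 to -0.02, unadjusted p = 0.0205, FDR = 0.268 by edgeR), and the gene was not called. The summed CPM of both neuropilins was 588 ± 49.1 in Bbs8+/+ and 512 ± 7.54 in Bbs8-/-, with no overlap. The 95% intervals of 7 of the 10 genes lay within 0.5 of 0 on the log2 scale, and those of Vegfc, Vegfd and Flt4 reached further.

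**Figure D2:**
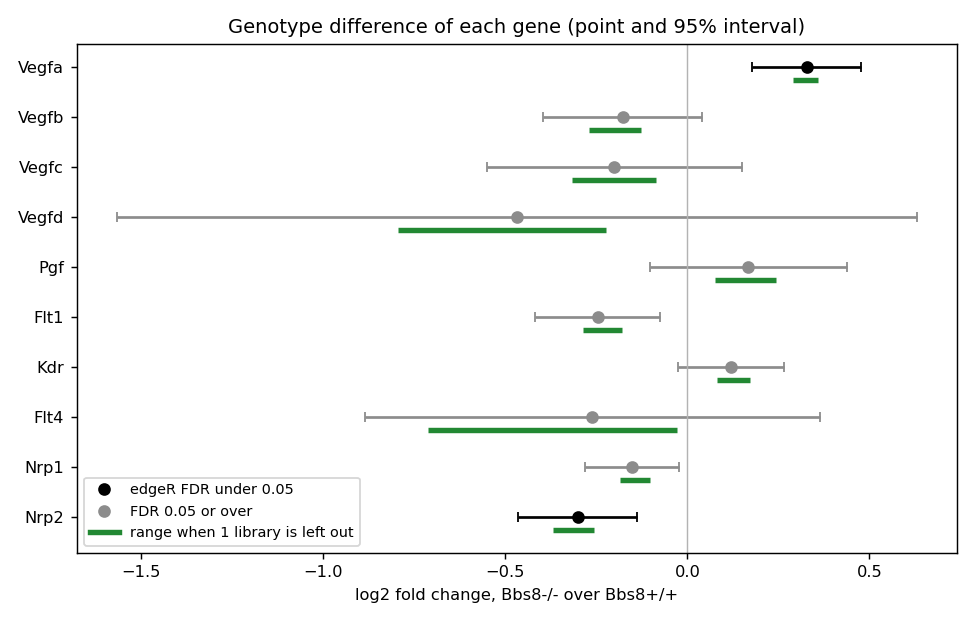
log2 fold change of Bbs8-/- over Bbs8+/+ (x axis) of each VEGF gene, with its 95% interval from edgeR (thin line) and the range of the estimate when each of the 8 libraries is left out in turn (green bar). The intervals of Vegfa and Nrp2 (black, FDR under 0.05) lie on opposite sides of 0, and Vegfd has the widest interval, from -1.57 to 0.63.

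The order of the levels shifted at 1 place. In Bbs8+/+ libraries the mean CPM fell in the order Nrp1, Kdr, Nrp2, Vegfa, Flt1, Vegfb, Pgf, Vegfc, Flt4 and Vegfd. From Kdr to Flt1 the ranges of neighbours overlapped, as did those of Flt4 and Vegfd, and the other neighbours were separate in all 4 libraries. In Bbs8-/- libraries Vegfa came before Nrp2, from which it was separate in all 4 libraries, and overlapped Kdr instead. A 3′ protocol gives about 1 read per transcript whatever its length, so CPM was not divided by length here, but differences in 3′ end use and mapping between genes remain in this order.

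Ratios within a library do not depend on its scaling. The ratio of Kdr to Flt1, the main signalling receptor over the tighter-binding one, was 1.39, 1.36, 1.36 and 1.32 in Bbs8+/+ and 1.95, 1.71, 1.75 and 1.61 in Bbs8-/- replicates 1 to 4. The control ratios were nearly equal, and all knockout ratios were higher, by a fold of 1.29 between the geometric means of 1.36 and 1.75 (exact permutation p = 0.0286, the smallest possible, adjusted p = 0.05 over 7 ratios, which is at and not under the threshold, and 0.0571 over 6 ratios, without that of Vegfa to the summed receptors). Both genes are expressed by endothelial cells. Set against the summed CPM of 23 endothelial markers, the ratio of Kdr was 1.14-fold higher in Bbs8-/- and that of Flt1 was 0.887-fold the control ratio, each with overlap between genotypes (exact permutation p = 0.143, adjusted p = 0.167). With the mean of log2 marker levels in place of the sum, the log2 difference of the Kdr ratio was 0.25 instead of 0.19 and passed the threshold (exact permutation test, adjusted p = 0.04 over 7 ratios and 0.0429 over 6), so that this call depends on how the markers are summarised. The same ratio of Nrp1 was 0.947-fold (exact permutation p = 0.343, adjusted p = 0.343). When single libraries were left out, the log2 difference ranged from 0.15 to 0.24 for Kdr, from -0.23 to -0.11 for Flt1 and from -0.13 to -0.0325 for Nrp1.

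The ratio of Vegfa to the summed CPM of 17 RPE markers was 0.0099, 0.0088, 0.0096 and 0.0089 in Bbs8+/+ and 0.0111, 0.0104, 0.0114 and 0.0114 in Bbs8-/- replicates 1 to 4. All knockout libraries were higher, by a fold of 1.19 between the geometric means, compared with the rise of 25.5% in Vegfa itself. Ttr made up the largest part of the RPE sum, at 10940 CPM in Bbs8+/+ and 11660 CPM in Bbs8-/-, so the ratio rests largely on that gene. Of the 17 RPE marker estimates, 12 were above 0 and 5 below. The ratio of Vegfa to the summed CPM of genes that respond to hypoxia was 1.18-fold higher, again with no overlap. Both ratios had an exact permutation p of 0.0286 and an adjusted p of 0.05 over 7 ratios, and this p is the smallest that 4 against 4 libraries allow. Pkm, a glycolytic gene of this list, made up most of the difference in the hypoxia sum, and without Pkm in that sum the Vegfa ratio was 1.24-fold higher (adjusted p = 0.05, exact permutation test). The ratio of Vegfa to the sum of the 3 kinase receptors, given as a description, was 0.528, 0.482, 0.468 and 0.392 in Bbs8+/+ and 0.5997, 0.543, 0.585 and 0.654 in Bbs8-/- replicates 1 to 4.

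**Figure D3:**
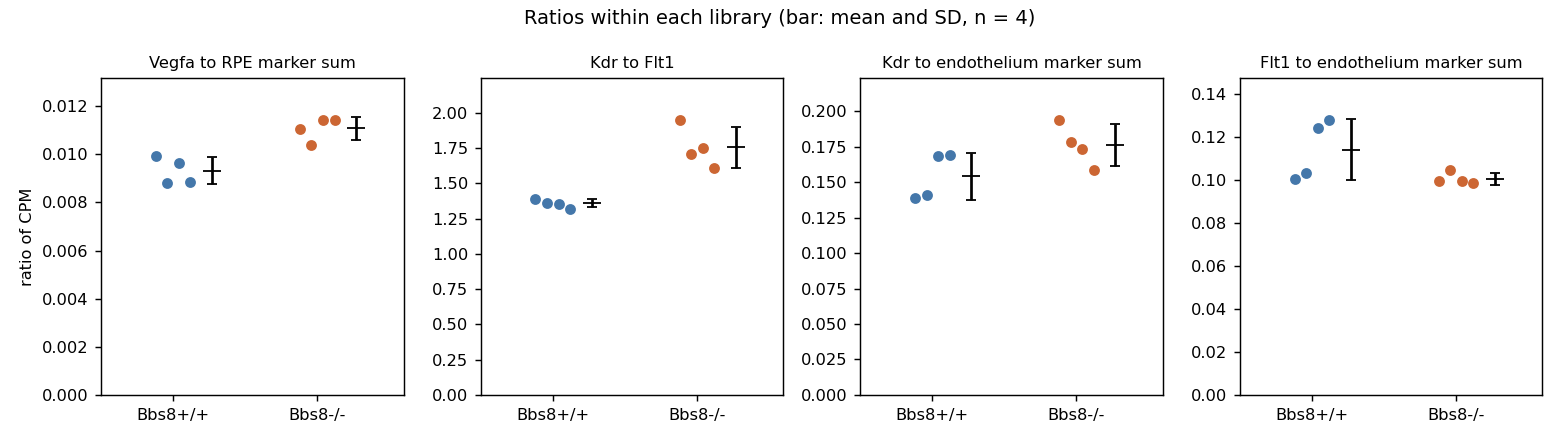
Ratio of CPM within each library (y axis, from 0, without unit) for Vegfa over the RPE marker sum, Kdr over Flt1, and Kdr and Flt1 over the endothelial marker sum, in Bbs8+/+ (blue) and Bbs8-/- (orange) libraries; points are libraries and bars show mean and SD. The Kdr to Flt1 ratio is 1.32 to 1.39 in the controls and 1.61 to 1.95 in the knockouts, while both ratios to the endothelial marker sum overlap between genotypes; with the mean of log2 marker levels, the Kdr ratio passed the threshold (adjusted p = 0.04).

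VEGF-A is a textbook target of HIF, and genes of oxygen sensing were examined beside it. Of 10 HIF subunits and regulators, 1 was down-regulated and none was up-regulated, with a median log2 fold change of -0.06 and a summed level of 592 to 609 CPM in Bbs8+/+ and 509 to 583 CPM in Bbs8-/-. The down-regulated gene was Epas1, the HIF-2α subunit, at 216 ± 14.5 CPM in Bbs8+/+ and 179 ± 19.4 CPM in Bbs8-/- (log2 fold change -0.27, SE 0.0806, FDR = 0.0441 by edgeR), and its call was lost in 7 of 15 alternatives. Hif1a was at 172 ± 14.8 and 157 ± 13.7 CPM (FDR = 0.571), and the prolyl hydroxylase Egln2 at 55.7 ± 7.54 and 52.9 ± 9.89 CPM (FDR = 0.883).

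Of 27 genes that hypoxia induces in many cell types, Vegfa not included, 25 were tested and 1 was up-regulated. This was Pkm, a pyruvate kinase of glycolysis, which rose from 176 ± 28.6 to 280 ± 7.22 CPM (log2 fold change 0.67, SE 0.0782, FDR = 1.33e-11 by edgeR). The glucose transporter Slc2a1 was at 257 ± 22.7 and 245 ± 7.24 CPM (FDR = 0.775), and the glycolytic enzyme Aldoa at 610 ± 14.2 and 652 ± 42.5 CPM (FDR = 0.485). The median log2 fold change of the 25 was -0.04, with 12 estimates above 0 and 13 below. Summed over the list, the level was 1713 to 1852 CPM in Bbs8+/+ and 1894 to 1953 CPM in Bbs8-/- with no overlap, but without Pkm it was 1538 to 1682 and 1613 to 1678 CPM, and the genotypes overlapped. The untested Ankrd37 and Car9 had at most 4 counts and 1 count in any library. Only uniquely aligned reads were counted, so a gene whose reads also align elsewhere is measured too low. In Bbs8+/+, Gapdh was at 51.4 CPM, Pgk1 at 5.01 CPM and Pgam1 at 4.90 CPM. Whether reads of these genes were lost in this way was not tested.

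Downstream of the receptors, none of 36 tested genes of VEGF signalling passed the threshold, with a median log2 fold change of -0.08 and a range of -0.85 to 0.38. Their summed level was 2666 to 2791 CPM in Bbs8+/+ and 2547 to 2603 CPM in Bbs8-/-, with no overlap and no test. The 3 most abundant were the GTPase Cdc42, at 324 ± 10.1 and 299 ± 17.9 CPM (FDR = 0.461), the kinase subunit Pik3r1, at 247 ± 17.2 and 210 ± 14.2 CPM (FDR = 0.0909), and the calcineurin subunit Ppp3ca, at 244 ± 26.1 and 234 ± 17.8 CPM (FDR = 0.814). Of 10 endothelial genes known to respond to VEGF-A, none passed the threshold, with 7 estimates below 0 and a median of -0.27, which ranged from -0.41 without Bbs8-/- replicate 2 to -0.17 without Bbs8+/+ replicate 4. Among them, Pdgfb was at 29.6 ± 2.23 and 27.5 ± 2.72 CPM (FDR = 0.895), Rcan1 at 19.6 ± 6.64 and 15.3 ± 3.38 CPM (FDR = 0.541), and the nitric oxide synthase Nos3 at 15.2 ± 3.85 and 12.6 ± 3.24 CPM (FDR = 0.742). The summed CPM of these 10 genes was 106 to 116 in Bbs8+/+ and 90.4 to 103 in Bbs8-/-.

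Of 7 genes whose products cleave or activate VEGF-C and VEGF-D, 6 were tested and 1 was up-regulated, the lysosomal protease Ctsd, from 1807 ± 175 to 2264 ± 130 CPM (log2 fold change 0.33, SE 0.0446, FDR = 1.19e-08 by edgeR). Ctsd is a general lysosomal enzyme, abundant in the RPE. The proprotein convertases Furin (FDR = 0.98) and Pcsk5 (FDR = 0.77) did not pass the threshold. Of 12 semaphorins and plexins that partner the neuropilins, none was called, and their median log2 fold change was 0.02. The secreted semaphorin Sema3c was at 265 ± 22.4 and 286 ± 20.97 CPM (FDR = 0.544), Sema3b at 147 ± 6.45 and 169 ± 13.9 CPM (FDR = 0.273), and the receptor Plxna2 at 72.3 ± 5.53 and 62.1 ± 6.73 CPM (FDR = 0.447).

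Of 19 other factors that promote or restrain vessel growth, 2 were down-regulated and none was up-regulated. Angpt1, the angiopoietin that stabilises vessels through the receptor Tie2, fell from 208 ± 10.2 to 167 ± 10.2 CPM (log2 fold change -0.32, SE 0.0808, FDR = 0.0104 by edgeR), a call lost without Bbs8-/- replicate 4 (FDR = 0.082). Igf1, an insulin-like growth factor, fell from 244 ± 13.4 to 204 ± 5.36 CPM (log2 fold change -0.26, SE 0.0752, FDR = 0.0392 by edgeR), but lost its call in 8 of 15 alternatives. Serpinf1, which encodes the vessel-restraining factor PEDF of the RPE, was at 259 ± 20.1 and 292 ± 20.98 CPM (FDR = 0.232). Thbs1, an inhibitor of vessel growth, was at 310 ± 19.2 and 336 ± 33.0 CPM (FDR = 0.474), and Timp3, an RPE-secreted protease inhibitor that also blocks VEGFR2, was at 3821 ± 57.4 and 3775 ± 51.5 CPM (FDR = 0.903).

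**Figure D4:**
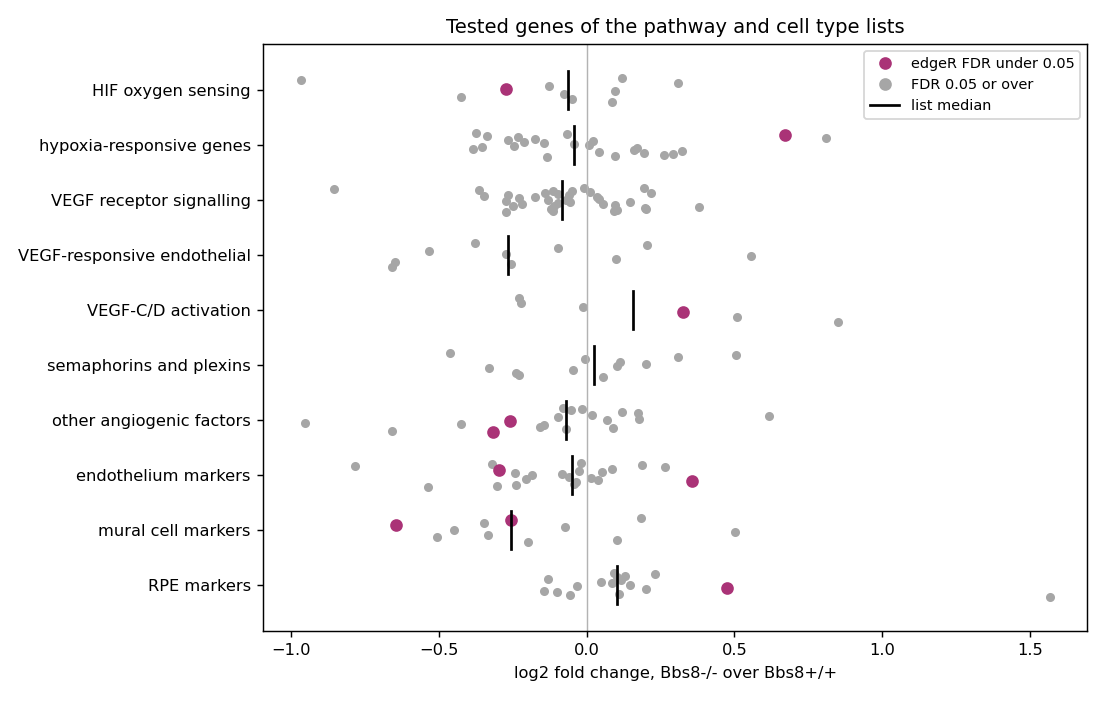
log2 fold change of Bbs8-/- over Bbs8+/+ (x axis) of every tested gene in 7 pathway lists and in 3 marker lists (y axis); each point is 1 gene, filled magenta where the edgeR FDR is under 0.05, and the black tick is the list median. Few genes of any list are called, and the list medians lie between -0.27 and 0.16.

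Markers of the cell types that express these genes were read from the same libraries. Of 23 endothelial markers, 22 were tested. Egfl7, an endothelial matrix protein, rose from 133 ± 12.6 to 170 ± 16.1 CPM (FDR = 0.0081 by edgeR), Ptprb, a vascular phosphatase, fell from 310 ± 20.5 to 252 ± 28.4 CPM (FDR = 0.00589), and Ramp2 was at 144 ± 4.77 and 152 ± 29.8 CPM (FDR = 0.774). The call of Egfl7 was lost without Bbs8+/+ replicate 2 (FDR = 0.0863) or Bbs8-/- replicate 4 (FDR = 0.103), and that of Ptprb without replicate 1 of either genotype (FDR = 0.0708 and 0.125). Summed endothelial markers ranged from 1467 to 1591 CPM in Bbs8+/+ and from 1365 to 1514 CPM in Bbs8-/-. Of 11 markers of pericytes and vascular smooth muscle, 2 were down-regulated, and their sum was 1366 to 1421 CPM in Bbs8+/+ and 1209 to 1289 CPM in Bbs8-/-. Of 17 RPE markers, 1 was up-regulated, and their sum was 20330 to 21440 CPM in Bbs8+/+ and 21950 to 22290 CPM in Bbs8-/-.

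Marker lists of other cell types were read in the same way, and their sums were not tested. Summed melanocyte markers (6 of 9 down-regulated) were 14230 to 14890 CPM in Bbs8+/+ and 11820 to 12360 CPM in Bbs8-/-. Most of this sum was Dct, at 10360 CPM in Bbs8+/+ and 8721 CPM in Bbs8-/-. The 3 melanocyte markers not called were Kit, Sox10 and Tyr (FDR = 0.974, 0.878 and 0.955 by edgeR). Summed fibroblast markers (3 of 8 down-regulated, 1 up-regulated) were 34210 to 35950 and 26880 to 28080 CPM. Of the fibroblast estimates 4 were above and 4 below 0. Summed lens markers (13 of 20 up-regulated) were 228 to 264 and 654 to 698 CPM, summed macrophage markers (2 of 11 up-regulated) were 491 to 540 and 592 to 637 CPM, and summed photoreceptor markers (2 of 17 down-regulated, 1 up-regulated) were 558 to 608 and 476 to 545 CPM. Müller glia markers (1 of 7 up-regulated) and muscle markers (1 of 13 up-regulated) summed to 4079 to 4220 and 1836 to 1945 CPM in Bbs8+/+ and to 4277 to 4405 and 1920 to 2066 CPM in Bbs8-/-. Nearly all of the Müller glia sum came from Apoe, Glul, Rlbp1 and Vim, and Rlbp1 is also in the RPE list. Aqp4 was at 1.57 and 1.51 CPM, Slc1a3 at 25.8 and 26.1 CPM, and the called gene Gfap at 2.62 and 14.4 CPM in Bbs8+/+ and Bbs8-/-. The only listed marker at 0 counts in every library was Ccl21a. The part of these cell types in the levels of Vegfa, Nrp2 and the other VEGF genes was not tested.

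The genes whose levels were most like that of Vegfa across the 8 libraries, by Pearson's r of log2 CPM among 6625 genes with a mean of at least 20 CPM, were Trpm3 (r = 0.98), Adamts5 (r = 0.979), Peg3 (r = 0.976), Ier3 (r = 0.972) and Actb (r = 0.964). The libraries share the genotype difference, so these values describe likeness over 8 points that fall into 2 groups. Trpm3, a cation channel of the RPE, was at 350 and 407 CPM (FDR = 0.0392), Adamts5, a matrix protease, at 30.3 and 44.9 CPM (FDR = 0.0315), and the early response gene Ier3 at 31.0 and 53.8 CPM (FDR = 0.00018) in Bbs8+/+ and Bbs8-/-. Peg3, an imprinted gene, was at 611 and 653 CPM (FDR = 0.473), and Actb at 3607 and 4217 CPM (FDR = 2.74e-06 by edgeR).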

How the data were processed

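The deposited values were raw gene counts of uniquely aligned reads, with 1 file for each library. To make them, the authors trimmed reads with BBDuk, aligned them with STAR to mm10 (STAR and mm10 are named in the submitters' processing notes) and counted them with htseq-count. The strand setting is not given in the sources used here, and a multi-mapping filter used by the study was not applied, since it cannot be rebuilt from these counts. No molecular identifiers were named, so floors cover counting error only. Lines of reads outside annotated genes were left out of totals.

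The 13813 of 31053 genes that reached 1 CPM in 4 or more libraries entered edgeR 4.0.16 (R 4.3.3), with TMM scaling, a model of genotype alone and its quasi-likelihood test, two-sided and Benjamini-Hochberg adjusted over all tested genes, at FDR 0.05. Levels are TMM-scaled CPM, as mean ± SD with n = 4. The standard error is the log2 fold change divided by the square root of F. The procedure was tested on simulated counts with known changes. It recovered 125 of 200 changed genes, and 3 of its 128 calls were false, so a gene not called can still differ. Ratios were compared on the log2 scale by two-sided exact permutation tests, adjusted over 7 ratios. The ratio of Vegfa to the summed receptors was among these 7, but its p is not given, since it sums members, and the values adjusted over the other 6 ratios stand beside the result.

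The members and all gene lists were chosen with earlier results of these data known. Vegfa, Ctsd and Trpm3 were also named by the study. Genes named were all 10 members, Ttc8, the called and the 3 most abundant genes of each pathway list, the 3 most abundant endothelial markers, and the 5 genes most like Vegfa. The 5 lymphatic markers are named beside Flt4 outside this rule, after their values were seen. Single genes of the hypoxia-responsive, RPE, melanocyte and Müller glia lists are named outside this rule too, after their values were seen. Other marker lists are given as counts and sums only, and no set test was run. Promoters came from RefSeq (GRCm38.p6), with all 10 genes matched, and gene positions and 3′ ends from GENCODE M21 (31011 of 31053 identifiers matched). Alternatives were RLE size factors, library totals only, filterByExpr, no filter, DESeq2 1.42.0, a replicate block, leaving out Gm42418 and mitochondrial genes, leaving out each library, and for ratios the mean of log2(CPM + 1) of the markers. The adjustments over 6 ratios and the hypoxia sum without Pkm were chosen after seeing the data.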

Additional observations from a re-analysis of the deposited data

Results flagged for a closer look

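Among 80 groups of 4 libraries, 3 held a single library far from the other 3, where chance gives about 1 in 20, or 4. Kdr was at 233.0 CPM in Bbs8-/- replicate 4, against 262.8 to 265.0 CPM in the other Bbs8-/- libraries. The summed CPM of the semaphorins and plexins that partner the neuropilins was 695.2 in Bbs8-/- replicate 3, against 780.5 to 791.4 in the others. The ratio of Flt1 to the endothelial marker sum was 0.1044 in Bbs8-/- replicate 2, against 0.09866 to 0.09956 in the others.

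Reads outside annotated genes, which enter no gene's count, were 44.27% of uniquely aligned reads in Bbs8-/- and 42.64% in Bbs8+/+, with no overlap between genotypes. Their part in the VEGF values was not tested.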

How the results depend on the processing

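Vegfa kept its direction and call in 15 of 15 alternatives (FDR 0.00204 to 0.027), as did Ttc8 (log2 fold change -2.44 to -1.70), and of the other VEGF genes none but Nrp2 changed its side of the threshold. The number of VEGF genes called higher was 1 throughout, and the number called lower was 0 to 1 when single libraries were left out. Nrp2 lost its call without Bbs8+/+ replicate 2, 3 or 4 or Bbs8-/- replicate 1, 3 or 4, and ranged from -0.37 to -0.26 over all 8 omissions. Over the same omissions Vegfb ranged from -0.27 to -0.13, Vegfc from -0.32 to -0.086, Vegfd from -0.80 to -0.22, Pgf from 0.077 to 0.24, Kdr from 0.081 to 0.17 and Flt4 from -0.71 to -0.029. Across all genes, 114 to 173 were called higher and 101 to 172 lower (101 to 150 with single libraries left out, the 101 without Bbs8-/- replicate 1). With the mean of log2 marker levels in place of the sum, the log2 ratios of Vegfa to RPE markers (0.20), of Vegfa to hypoxia-responsive genes (0.33) and of Kdr to endothelial markers (0.25) had an adjusted p of 0.04 each over 7 ratios and 0.0429 over 6. For both Vegfa ratios, whose unadjusted p was already the smallest possible, this lower value arises only because Kdr to endothelial markers reached the same p, and says nothing further about Vegfa. Vegfd has no value under filterByExpr.

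With 1 library left out, the median log2 fold change ranged from -0.137 to 0.0571 for the HIF regulators, from -0.0788 to 0.0278 for the hypoxia-responsive genes, from -0.09 to -0.0499 for VEGF signalling, from -0.407 to -0.171 for VEGF-responsive endothelial genes, from -0.0228 to 0.178 for VEGF-C/D processing, from -0.0593 to 0.0946 for semaphorins and plexins, from -0.13 to -0.0176 for other angiogenic factors, from -0.112 to -0.0467 for endothelial markers and from 0.0804 to 0.129 for RPE markers. The VEGF-C/D processing median was -0.0084 under filterByExpr and 0.32 without a filter, where fewer or more of its genes are counted. Without single libraries, estimates near 0 also changed sign for Egln2 (-0.188 to 0.0162), Furin (-0.0684 to 0.0820), Ppp3ca (-0.11 to 0.0195) and Ramp2 (-0.0428 to 0.191), none of which was called. Calls were lost in 7 of 15 alternatives for Epas1, 8 for Igf1, 2 each for Egfl7 and Ptprb and 1 for Angpt1. The cause was not tested.

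Replicate numbers were shared between genotypes, but same-numbered libraries did not deviate together (correlations over 6626 genes of 0.02, 0.003, -0.05 and -0.056), and of the 4 control libraries only replicate 1 correlated best with its own number. With the replicate block, 134 genes were called higher and 129 lower, Vegfa was at 0.33 (FDR = 0.0074) and Nrp2 at -0.30 (FDR = 0.0421).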
